A study of Sus scrofa domesticus with 4 samples.

Results

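The antiviral interferon effectors described here are the proteins that a cell makes in response to interferon and that act on viral RNA, on viral proteins or on the interferon signal itself. Of 10 listed genes, 9 had probes on the array (OASL, OAS2, IFIT3, RSAD2, ISG15, MX1, MX2, EIF2AK2 and USP18), with 20 probes of 43603. A probe belonged to a gene when its transcript accession matched that gene in RefSeq, so no measured value chose the probes. The list of genes itself was chosen with earlier results of these data known. No probe matched OAS1, which was not analysed here. The series has 4 two-colour arrays of endometrium, the lining of the uterus, from Large White x Polish Landrace gilts aged 7 to 8 months and weighing 120 to 130 kg, all on days 15 to 16 of gestation with conceptuses present. Each array set RNA of explants kept for 24 h in medium with orexin B at 10 nM, against RNA of explants kept for the same time without it, both after 2 h of preincubation. Orexin B (hypocretin 2) is a neuropeptide first known from the hypothalamus. The comparison asks what it does to endometrial RNA at the time the conceptus attaches. An explant is a slice of whole tissue, so the RNA came from luminal and glandular epithelium, stroma, vessels and resident leukocytes together. Animals (4) and duplicate cultures are named in the labels without a link to an array. The replicates are therefore the 4 arrays. Every p-value measures only a spread between arrays, which limma estimates partly from other probes.

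Type I and type II interferons bind paired receptors, and Janus kinases then phosphorylate STAT proteins, which enter the nucleus and switch on interferon-stimulated genes. In the pig the elongating conceptus secretes interferon gamma and interferon delta around attachment, and interferon-stimulated genes of the endometrium are induced at that time, mainly in the stroma. Among the members, OAS2 and OASL belong to the 2′-5′ oligoadenylate synthetase family, EIF2AK2 (PKR) is a kinase that halts translation on double-stranded RNA, and IFIT3 is a tetratricopeptide protein of the complex that binds viral RNA. RSAD2 (viperin) makes a chain-terminating nucleotide, MX1 and MX2 are dynamin-like GTPases that trap viral nucleoproteins, ISG15 is a ubiquitin-like modifier, and USP18 removes ISG15 and damps receptor signalling.

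By its dye labels, array 1 carried treated RNA in Cy5, as did array 3, while arrays 2 and 4 carried it in Cy3. A protocol text common to the samples reads as if Cy5 held the treated RNA throughout, and that reading is given as an alternative. Array 2 was scanned on another day and had 46.8% of spots well above background in Cy5, against 82.4% to 86.7% on the other arrays. In Cy3 the share was 27.8% to 36.2%. Over the 13782 tested probes, ratios of treated over untreated correlated at 0.34 between arrays 1 and 3, which share an orientation, and at -0.03 between arrays 2 and 4. Between arrays of opposite orientation this correlation was -0.38 to 0.06. Cy5 over Cy3 ratios of 10 spike-in controls, by contrast, had a correlation of at least 0.995 in every pair of arrays. Whether the spike-in RNA was added by dye or by tissue RNA is not stated in the sources used here, and which RNA carried which dye was not tested.

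Ratios below are log2 of treated over untreated signal after loess normalisation within each array, so a value below 0 means less signal from the treated explants. Of the 20 probes, 17 were tested, meaning that the treated RNA, the untreated RNA or both gave signal well above background on every array. Of the members' 17 tested probes, 13 met this in both conditions and 4 in untreated RNA alone (23.5%), against 2.92% of all tested probes. Those 4 probes were below that mark in 1 treated channel only, Cy3 of array 4. No spot of a member was saturated or marked as an outlier.

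No member passed the threshold (limma, Benjamini-Hochberg adjusted p = 0.999 for each gene), and neither did any of the 13782 tested probes (0% called lower and 0% called higher). At an unadjusted p under 0.05, 495 probes stood out over the whole array (3.59%), of which 258 had a ratio below 0 (1.87%) and 237 a ratio above 0 (1.72%). In the members the same mark was met by 6 of 17 tested probes (35.3%), all with a ratio below 0. By gene, taking the mean of a gene's tested probes, 5 of 9 members met it with a ratio below 0 (55.6%), against 3.54% of the 1637 named genes. These members were OASL, RSAD2, IFIT3, ISG15 and OAS2. The count of genes was 1 without array 3, 2 without array 1, 3 without array 4 and 4 without array 2, against 1.59%, 2.08%, 5.01% and 2.99% of named genes. It was 2 with no dye term (1.77%), 1 with median centring (0.489%), 0 with no normalisation within arrays (0.183%) and 1 with treated RNA read as Cy5 throughout (6.66%). The gene ratio was below 0 in 7 of 9 members (77.8%), against 56% of named genes and 46.9% of all tested probes, and in 6 with median centring and 2 with no normalisation within arrays. The median gene ratio was -0.41, with 0.02 for all tested probes and -0.03 for named genes. With only probes above background in both dyes of every array, 7 of 9 genes had a ratio below 0, with a median of -0.45. OASL, ISG15, MX2, EIF2AK2 and USP18 could not change in this count, since their only tested probe already met that mark. In whole tissue, fewer cells of a type and less RNA per cell cannot be told apart.

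**Figure D1:**
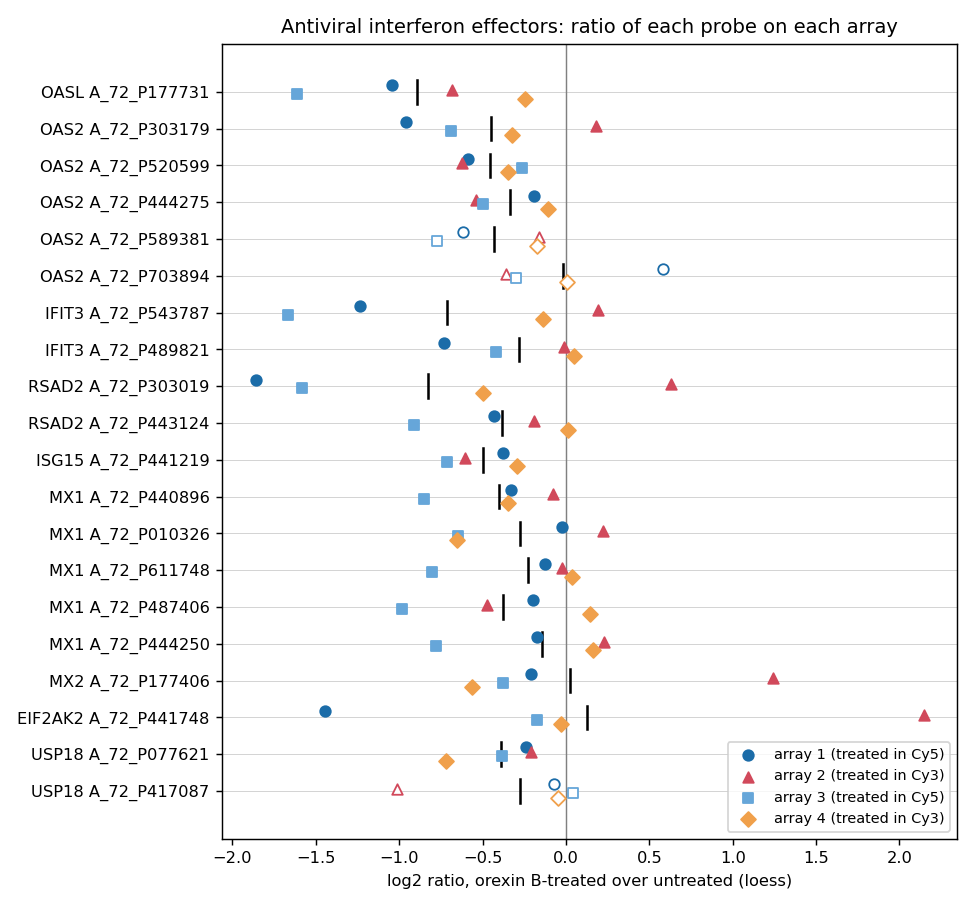
Log2 ratio of treated over untreated RNA (x axis) of the 20 probes on each array, with the treated dye in the legend, open symbols for the 3 probes that were not tested and a black line at the mean of the 4 arrays. On arrays 1 and 3 the ratios of all 17 tested probes lie below 0, while array 2 has 10 of 17 and array 4 has 12 of 17 below 0.

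The size of the ratio differed between arrays. On array 1 the median over the 9 genes was -0.58, on array 2 it was -0.02, on array 3 it was -0.72 and on array 4 it was -0.25. All 9 genes had a ratio below 0 on arrays 1, 3 and 4, and 5 of 9 did on array 2. The median of all tested probes lay between -0.03 and 0.06 on the 4 arrays, and 45.5% to 51.8% of them had a ratio below 0. A ratio below 0 on 4 of 4 arrays was found for 5 of 9 genes (55.6%), against 6.03% of named genes, and for 6 of 17 tested probes (35.3%), against 3.67% of all. The 5 genes were OASL, OAS2, ISG15, MX1 and USP18. Among the 6 probes, OAS2 probe A_72_P444275 was tested through untreated RNA alone, a filter that favours a ratio below 0. The gene means of OAS2 and MX1 include a probe tested in that way.

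OASL, an oligoadenylate synthetase-like protein that in human cells enhances RIG-I signalling and lacks synthetase activity, had the lowest ratio of the 9 genes. In treated RNA its log2 level was 10.36, 13.31, 10.82 and 9.35 on arrays 1 to 4, and in untreated RNA it was 11.40, 14.00, 12.43 and 9.60. The level was lower in treated than in untreated RNA on every array, and array 2 held the highest level in both. The array ratios were -1.04, -0.68, -1.61 and -0.25, with an estimate of -0.90 ± 0.19 by limma (moderated SE, n = 4), or 1.86 times lower in treated RNA. Its 95% interval was -1.35 to -0.44. The unadjusted p was 0.00216. The estimate was below 0 in all 14 alternatives run, from -1.04 to -0.28, the end nearest 0 being that with no normalisation within arrays. Not all of these could move it. Its only probe was above background in every channel, so changing the filter or the probe choice left it at -0.90. Dropping the dye term left it there too. The scanner's log ratio and the authors' table gave the same value, -0.96. With treated RNA read as Cy5 on all arrays the estimate was -0.43.

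OAS2, which makes 2′-5′ linked oligoadenylates on sensing double-stranded RNA, had 5 probes, of which 3 were tested. Probe A_72_P303179 had ratios of -0.96, 0.18, -0.69 and -0.33 on arrays 1 to 4. Probe A_72_P520599 had -0.59, -0.62, -0.26 and -0.35, and probe A_72_P444275 had -0.19, -0.54, -0.50 and -0.11. Ratios were below 0 on every array except for the first of these probes on array 2. The estimates were -0.45 ± 0.19, -0.45 ± 0.18 and -0.33 ± 0.18 (SE, n = 4), so the probes differed by less than their errors. As a gene, OAS2 had a log2 level of 11.26 ± 1.07 in treated RNA and 11.67 ± 1.09 in untreated RNA (SD, n = 4 each), and a ratio of -0.41 ± 0.17 (95% interval -0.81 to -0.01). Its SD over arrays, 0.14, was the smallest of the 9 genes, but it is that of a mean of 3 probes. The single probes had SDs of 0.49, 0.18 and 0.22, in the order above. The gene ratio was 0.25 with no normalisation within arrays and -0.12 with treated RNA read as Cy5 on all arrays. Of the untested probes, A_72_P589381 had ratios of -0.62, -0.16, -0.78 and -0.18. A_72_P703894, above background in Cy5 alone, had 0.58, -0.36, -0.30 and 0.00, which spread to both sides of 0.

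IFIT3 and RSAD2 shared a pattern over the arrays. IFIT3 probe A_72_P543787 had ratios of -1.24, 0.19, -1.67 and -0.14, and probe A_72_P489821 had -0.73, -0.01, -0.42 and 0.05. RSAD2 probe A_72_P303019 had -1.86, 0.63, -1.58 and -0.50, and probe A_72_P443124 had -0.43, -0.19, -0.91 and 0.01. In all 4 probes arrays 1 and 3, with treated RNA in Cy5, had lower ratios than arrays 2 and 4. As genes, IFIT3 had a ratio of -0.50 ± 0.17 (95% interval -0.89 to -0.10, unadjusted p = 0.0214 by limma) and RSAD2 one of -0.60 ± 0.18 (-1.03 to -0.18, unadjusted p = 0.0113). IFIT3 was at 0.050 with no normalisation within arrays, and RSAD2 at -0.073. The log2 level of RSAD2 was 9.36, 12.98, 9.85 and 9.26 in treated RNA, against 10.50, 12.76, 11.10 and 9.50 in untreated RNA. Array 2 alone had the higher level in treated RNA. IFIT3 likewise had 9.33, 11.70, 9.87 and 9.52 in treated RNA and 10.31, 11.61, 10.92 and 9.56 in untreated RNA. The 2 probes of each gene gave estimates of different size: -0.71 ± 0.18 and -0.28 ± 0.17 for IFIT3, and -0.83 ± 0.23 and -0.38 ± 0.18 for RSAD2.

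ISG15 is attached to newly made proteins during the interferon response. After scaling between arrays, it was the member whose level varied least between them. In treated RNA its log2 level was 16.40, 16.25, 15.77 and 16.27, and in untreated RNA it was 16.78, 16.86, 16.49 and 16.57. On this scale every treated level lay below every untreated level, so the groups did not overlap. This held for 1 of the 17 tested member probes, against 0.199% of all probes. Centred on the array median only, the mean level of both RNAs was 5.92, 6.91, 5.19 and 5.69. The groups then overlapped, and MX2, at 0.07, 1.18, 0.62 and 0.64, varied less. So did USP18, at 2.48, 3.87, 3.03 and 2.37, and EIF2AK2, at -0.57, 1.04, 0.64 and 0.33. The ratios of ISG15 were -0.38, -0.60, -0.72 and -0.29, with an estimate of -0.50 ± 0.18 (SE, n = 4, 95% interval -0.92 to -0.08, unadjusted p = 0.0261 by limma), or 1.41 times lower in treated RNA. With no normalisation within arrays it was 0.26, and with treated RNA read as Cy5 on all arrays it was -0.050.

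USP18, the protease that cleaves ISG15 from its targets, had ratios of -0.24, -0.21, -0.39 and -0.72 for probe A_72_P077621. All 4 arrays lay below 0, and the estimate was -0.39 ± 0.18 (95% interval -0.82 to 0.04). With no normalisation within arrays it was 0.32, and with treated RNA read as Cy5 on all arrays 0.076. In treated RNA the log2 level was 12.82, 13.91, 13.53 and 12.66, against 13.06, 14.12, 13.92 and 13.37 in untreated RNA. A second USP18 probe, A_72_P417087, was well above background in Cy5 alone and was not tested. Its ratios were -0.07, -1.02, 0.04 and -0.05, so that array 2 alone lay away from 0.

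MX1, which blocks influenza and other viruses in the pig, had 5 tested probes, whose estimates ran from -0.40 ± 0.19 for A_72_P440896 to -0.14 ± 0.19 for A_72_P444250 (SE, n = 4). Array 3 had ratios of -0.98 to -0.65 and was the lowest array in all of them but A_72_P010326, which had -0.65 on array 4 as well. As a gene its ratios were -0.17, -0.02, -0.81 and -0.13, with an estimate of -0.28 ± 0.19 (95% interval -0.73 to 0.16) that moved to 0.091 with median centring and 0.44 with no normalisation within arrays. It was -0.12 without array 3 and -0.44 without array 1. In treated RNA its log2 level was 12.68, 13.82, 12.54 and 11.23, and in untreated RNA it was 12.85, 13.85, 13.35 and 11.36. Averaged over the 5 probes, the treated level was the lower one on every array, by a wide margin on array 3 alone. The probes did not all share this: 5 of 5 had a ratio below 0 on arrays 1 and 3, 3 on array 2 and 2 on array 4.

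MX2 and EIF2AK2 were the members whose estimate was not below 0. MX2, the second Mx GTPase, had ratios of -0.21, 1.24, -0.38 and -0.56, and EIF2AK2 had -1.44, 2.15, -0.17 and -0.03. In both genes array 2 alone lay above 0. The estimates were 0.02 ± 0.29 for MX2 (95% interval -0.66 to 0.71) and 0.13 ± 0.37 for EIF2AK2 (-0.75 to 1.00). Without array 2 they were -0.43 and -0.42. The SD of the EIF2AK2 ratio over arrays, 1.49, was at the 99.2 percentile of all tested probes. In treated RNA EIF2AK2 had a log2 level of 9.16, 12.50, 11.10 and 10.84, against 10.60, 10.35, 11.27 and 10.87 in untreated RNA. The spread lay mainly in treated RNA, with an SD of 1.37 there and 0.40 in untreated RNA. Only 1 probe represented each of these genes, so no second probe could be set beside array 2.

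**Figure D2:**
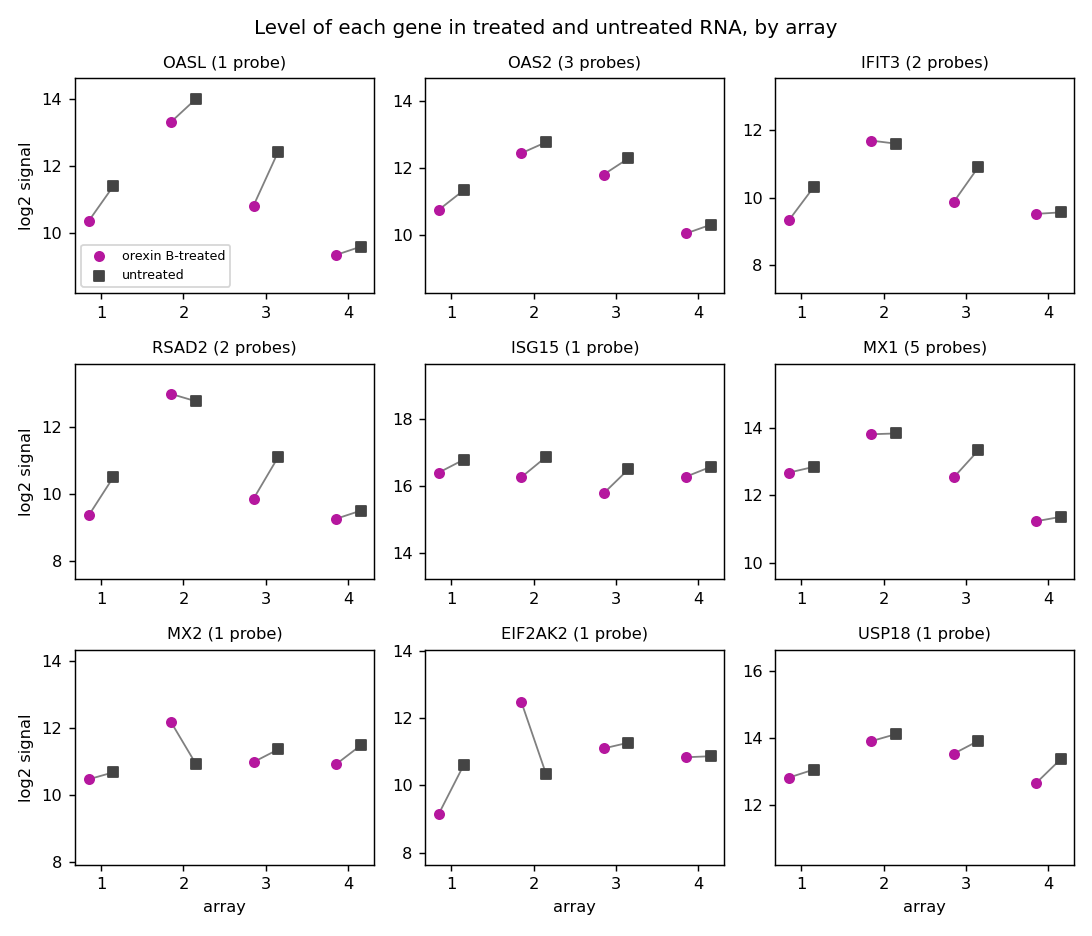
Log2 signal (y axis, a window of the same height in every panel) of each gene in treated RNA (circles) and untreated RNA (squares) on arrays 1 to 4 after scaling between arrays, with a line joining the RNAs of 1 array. OASL spans 4.18 log2 units over the arrays in mean level and ISG15 spans 0.45, and in 6 of 9 genes the step between arrays is larger than the largest step between the RNAs of 1 array.

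After scaling between arrays, 6 of 9 genes differed more in level between arrays than between treated and untreated RNA of any 1 array. The exceptions were ISG15, MX2 and EIF2AK2. Averaged over both RNAs, the gap between the highest and the lowest array was 4.18 log2 units for OASL (18.2 times), 3.49 for RSAD2 (11.2 times), 2.54 for MX1, 2.42 for OAS2 and 2.11 for IFIT3. It was 1.55 for EIF2AK2, 1.07 for USP18, 0.98 for MX2 and 0.45 for ISG15. With levels centred on the array median only, the gap of ISG15 was wider than each of its array ratios. Over the members' 17 tested probes the median range was 2.52, against 0.778 for all probes with a value on every array. A range of at least 2 was found in 12 of 17 (70.6%), against 2.21% of all probes. The highest level lay on array 2 in 16 of 17 (94.1%), against 27.4% of all probes, and in 13 of 17 the lowest level was on array 4 as well, against 9.49%. Without array 2 the median range was 1.50, against 0.579 for all probes. Taken in each RNA alone, the level was highest on array 2 in 15 of 17 probes in treated RNA (30.5% of all probes) and in 14 of 17 in untreated RNA (26.9%). EIF2AK2, MX2 and MX1 probe A_72_P440896 were highest there in treated RNA alone. By dye and before any scaling, the raw Cy3 signal was highest on array 2 in 17 of 17 probes, against 32.7% of all probes, and the raw Cy5 signal in 13 of 17, against 3.67%. OASL, for example, had a raw Cy3 signal of 7892 in treated RNA on array 2 and 748 in treated RNA on array 4. Its raw Cy5 signal was 23373 in untreated RNA on array 2 and 1043 in untreated RNA on array 4. The labels do not tie an animal to an array, so animal, culture and scan cannot be told apart in these steps.

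Markers of the cell types in an explant were set beside these levels. The epithelial EPCAM, CDH1, KRT8, CLDN3 and CLDN4 and the stromal DCN, LUM and COL1A2 were well above background, as the labelled tissue would hold. So were CYP19A1, IL1B2 and TFAP2C, which the conceptus makes. The rest of the 7 conceptus markers were on the array but did not reach that mark and were not tested. The median deviation of the 9 members from their own mean level was -0.53, 1.12, 0.22 and -0.81 on arrays 1 to 4, high on array 2 and low on array 4. The leukocyte markers (3 tested of 8 listed, CD3G, GZMB and NKG7) were at -0.79, 0.60, -0.33 and 0.52, high on array 2 but also on array 4. Macrophage and myeloid markers (4 of 7) were at -0.51, 0.09, -0.11 and 0.44, and stromal markers (3 of 6) at 0.13, -0.47, 0.36 and 0.57. Epithelial markers (5 of 8) were at 0.42, -0.27, -0.17 and -0.12, and endothelial markers (3 of 4) at -0.20, 0.30, 0.03 and -0.10. Smooth muscle (3 of 4) was at 0.47, 0.32, -0.58 and -0.01, and trophoblast and conceptus markers (3 of 7) at 0.21, 0.37, -0.06 and 0.08. The median of none of these lists was highest on array 2 and lowest on array 4. Of the single markers, CYP19A1 was, at 0.31, 0.47, 0.17 and -0.95. So was the endothelial PECAM1, at -0.10, 0.30, 0.06 and -0.26. For the ratio, the medians of treated over untreated were -0.27 for leukocyte, -0.51 for macrophage and myeloid, -0.21 for epithelial, 0.17 for stromal, -0.15 for endothelial, -0.21 for smooth muscle and -0.15 for trophoblast markers. The trophoblast median held TFAP2C at 0.85 ± 0.17 beside IL1B2 at -0.42 and CYP19A1 at -0.15. No gene among the 24 tested markers passed the threshold (limma). No plasmacytoid or B cell marker was tested, and no red blood cell marker was on the array. The part of these cells in the members' values was not tested.

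Because both dye orientations were present, the limma fit separated a dye term, the log2 of Cy5 over Cy3 common to all arrays, from the treatment term. The dye term was larger in size than the treatment term in 7 of 17 member probes. It reached -0.93 for EIF2AK2, -0.89 for RSAD2 probe A_72_P303019 and -0.74 for IFIT3 probe A_72_P543787, and these were the 3 of 17 probes with an unadjusted p under 0.05 for dye (14.1% of all tested probes had one, and 0% passed after adjustment). For ISG15 and USP18 it was small, at -0.05 and 0.08. The ratios of ISG15, USP18 and OAS2 probe A_72_P520599, with a dye term of 0.03, were thus, on average, of like sign and size in both orientations. The same holds for OAS2 probe A_72_P444275 (dye term -0.01) and MX1 probe A_72_P010326 (-0.06). A small dye term does not mean that single arrays were alike: the ratios of that MX1 probe ran from -0.65 to 0.22.

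**Figure D3:**
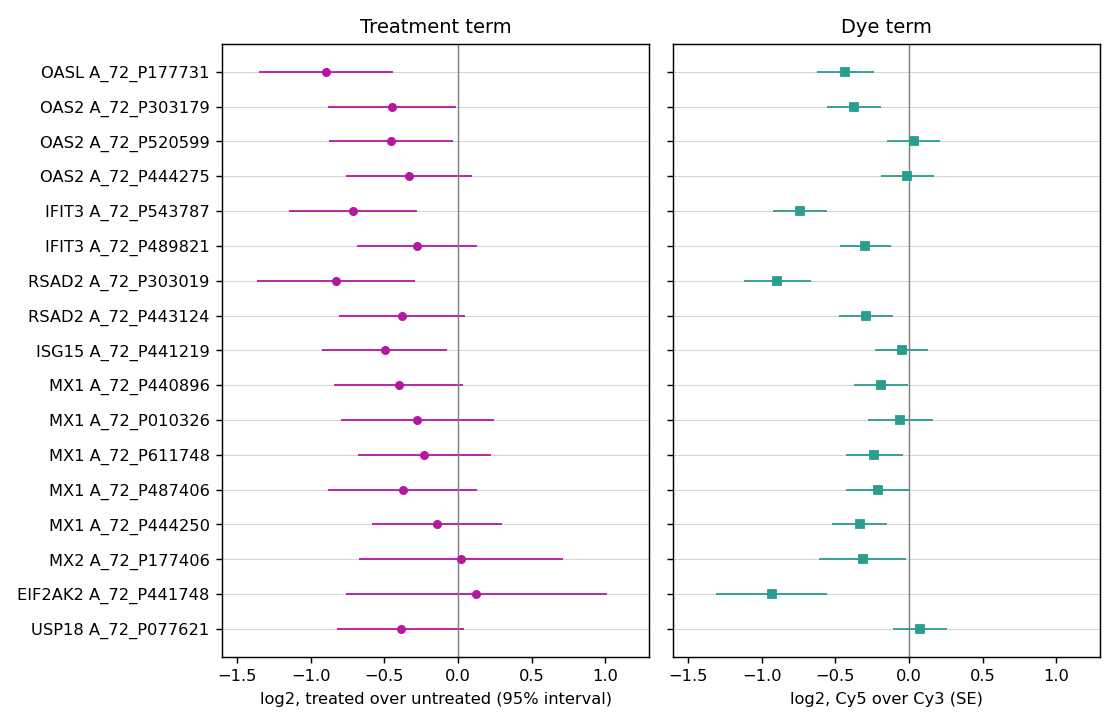
Treatment term with its 95% interval (left, log2 of treated over untreated) and dye term with its standard error (right, log2 of Cy5 over Cy3) of the 17 tested probes. The treatment term of OASL is the farthest below 0 at -0.90, while the dye terms of EIF2AK2, RSAD2 and IFIT3 reach -0.93, -0.89 and -0.74.

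Other genes of the interferon pathway were taken from 7 fixed lists. Of their 33 tested genes, 25 had a ratio below 0 and 8 above 0, none passed the threshold (limma), and the median was -0.18, nearer to 0 than the -0.41 of the members.

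Of the ligands, 4 of 9 listed genes were on the array and none was tested. IFNG was well above background in 3 of 4 Cy5 channels and in no Cy3 channel, IFNB1 likewise in 3 and none, IFNE in 4 Cy5 channels and 1 Cy3 channel, and IFNA1 in 1 Cy5 channel. The receptors and Janus kinases (8 tested of 9 listed) had 5 genes below 0 and 3 above, with a median of -0.16. They ran from IFNGR1, a chain of the interferon gamma receptor, at -0.48 ± 0.26, to JAK2, its kinase, at 0.27 ± 0.21. The STAT and IRF factors (8 of 11) had 7 below 0 and 1 above, with a median of -0.08.

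The nucleic acid sensors and adaptors (5 tested of 19) had 3 below 0 and 2 above, between IFIH1 (MDA5) at -0.16 ± 0.26 and TLR3 at 0.01 ± 0.19, with a median of 0.00. Other interferon-induced effectors (9 of 40) had 7 below 0 and 2 above, with a median of -0.28, and IFI30, a lysosomal thiol reductase, was highest at 0.03 ± 0.19. In the PKR pathway (3 of 9) all 3 genes were below 0 with a median of -0.20, between DNAJC3, a chaperone that inhibits PKR, at -0.27 ± 0.20 and DDIT3 (CHOP) at -0.20 ± 0.23. Of the ISG15 conjugation and feedback genes 1 of 8 was on the array, SOCS3, a feedback inhibitor of Janus kinases, and it was not tested. In level, the median deviation of the STAT and IRF factors was 0.07, 0.28, -0.12 and -0.16 on arrays 1 to 4. That of other interferon-induced effectors was -0.10, 0.34, -0.01 and -0.19. Both were highest on array 2 and lowest on array 4, as the members were, with smaller steps. The sensors were highest on array 2 but lowest on array 1, and the receptors and the PKR pathway were highest elsewhere.

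**Figure D4:**
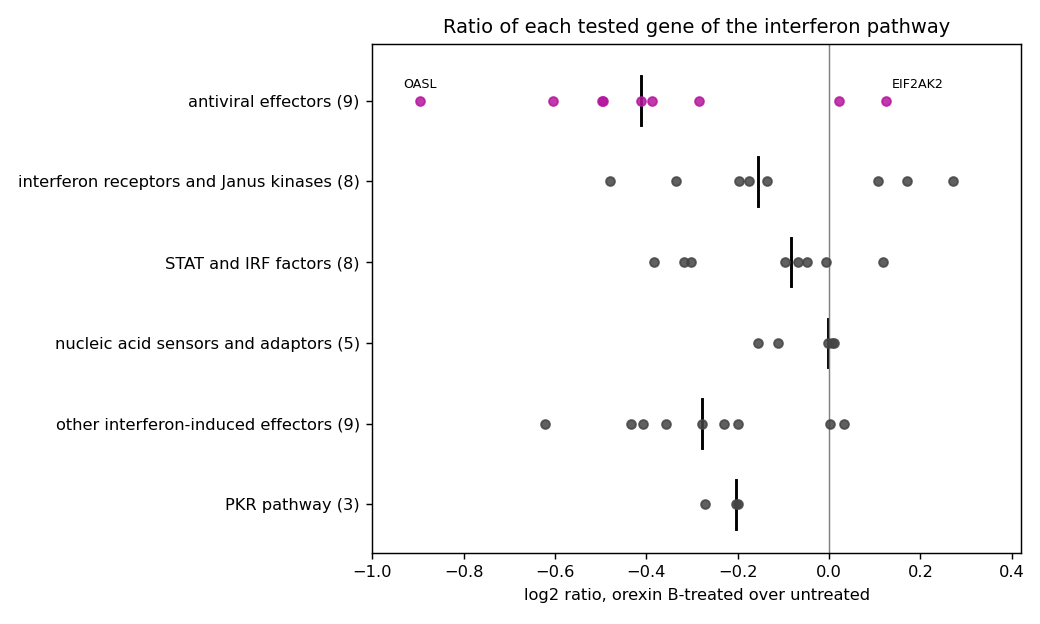
Log2 ratio of treated over untreated RNA (x axis) of each tested gene in the members and in 5 lists of the interferon pathway, with the number tested in brackets, a black line at each median and the lowest and highest member named. The members' median lies at -0.41 and those of the other lists between -0.28 and 0.00.

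Among 1617 named genes that are not members, those whose 4 array ratios lay closest to the members' median on each array included CALR, CDH5, DNAJB1 and CASP8. Their root mean square difference was 0.124, 0.144, 0.151 and 0.152, against a median of 0.599 over all genes compared. CALR, a chaperone of the endoplasmic reticulum, had ratios of -0.46, 0.03, -0.70 and -0.04. Measured the same way, OAS2 lay at 0.192, MX1 at 0.218, IFIT3 at 0.285, ISG15 at 0.307, USP18 at 0.347, RSAD2 at 0.407, OASL at 0.602, MX2 at 0.698 and EIF2AK2 at 1.20. EIF2AK2, MX2 and OASL were thus the members least like the median of the group.

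**Figure D5:**
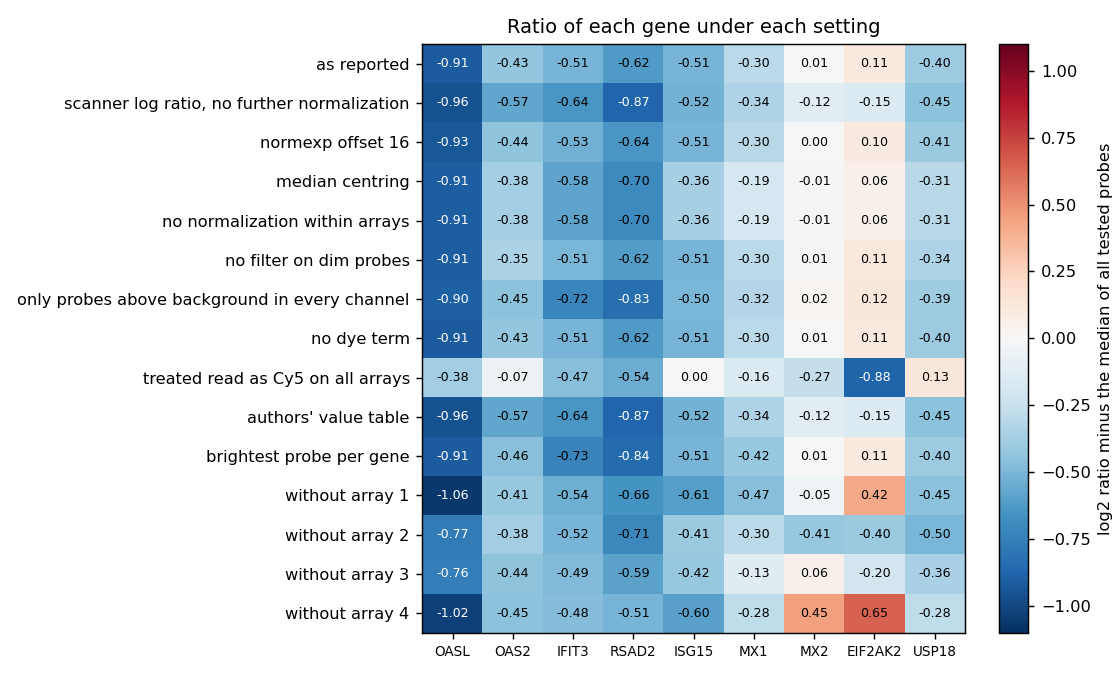
Log2 ratio of each gene minus the median of all tested probes (colour and printed value) in the reported fit and in 14 alternatives (rows). OASL, OAS2, IFIT3, RSAD2 and MX1 lie below 0 in all 14 alternatives, while MX2 and EIF2AK2 change sign and ISG15 and USP18 reach 0.00 and 0.13 where treated RNA is read as Cy5 on all arrays. Some rows repeat others by construction, such as median centring and no normalisation.

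The median of all tested probes lay at 0.63 with no normalisation within arrays and at 0.28 with median centring. Measured against it, the ratios moved less from the reported fit. Median centring and no normalisation then give the members the same values by construction, since they differ only by a constant on each array. OASL lay at -0.91 in the reported fit and at -0.91 with median centring, and the median of the members at -0.43 and -0.36. In the authors' deposited table, which holds log2 ratios turned to treated over untreated, all 9 genes had a ratio below 0 with a median of -0.52.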

How the data were processed

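The 4 arrays were scanned and extracted with Agilent Feature Extraction 10.7.3.1, per the file headers. The deposited spot intensity of each channel and its local background are raw median pixel values, per the file headers. A log10 ratio (Cy5 to Cy3, with the scanner software's own correction) stands beside them, per the file headers. Log2 ratios in the authors' deposited value table are of treated to untreated RNA and follow the scanner's processed signals (correlation of 1, -1, 1 and -1 for arrays 1 to 4). Its columns are not centred, with medians of 0.183, 0.291, 0.0118 and 0.0307.

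Background was corrected by normexp (offset 50) and each array was normalised by loess (limma 3.58.1, R 4.3.3), with control and outlier spots at weight 0. The 43803 spots gave 43603 probes, 13782 of them tested, of which 215 lacked a value on 1 or more arrays. A treatment and a dye term left 2 residual degrees of freedom beside 5.09 prior ones shared between probes, and the ± of an estimate is this moderated SE. P-values were two-sided and adjusted by Benjamini-Hochberg over all tested probes, or over the 11782 genes and unnamed probes of the gene fit, at 0.05. The fit was tested on simulated data. Levels were scaled between arrays on mean signal, then split by the ratio. Probes were named through RefSeq transcripts of Sscrofa11.1 (6700 probes of 3029 genes, tested 3637 of 1637). No coordinates are given, as the files used here name no build. Whether probes of related genes bind each other's RNA was not tested, and the number of arrays limits the precision. The members, the 7 pathway lists and the 9 marker lists were chosen with earlier results of these data known. Named genes are all member probes, the lowest and highest tested gene of each pathway list and the 5 genes most like the members' median, and some of these are not reported here. Alternatives covered background, normalisation, filter, dye term, dye reading, value table, probe choice and each array left out. The planned mean spot signal was not run because it is not among the columns used here.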

Additional observations from a re-analysis of the deposited data

Results flagged for a closer look

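Among the 20 member probes, whose 4 array ratios were each checked for a value far from the others, 1 stood apart. USP18 probe A_72_P417087 had a ratio of -1.02 on array 2 and of -0.07, 0.04 and -0.05 on arrays 1, 3 and 4. It was not well above background in Cy3 on any array, and the check marks about this many of 20 groups by chance.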

How the results depend on the processing

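Each gene was refitted under 14 alternatives, and no member passed the adjusted threshold in any of them (limma). The smallest adjusted p of a member was 0.0913, for MX1 at a ratio of 0.44 with no normalisation within arrays, and 0.0915 for OASL without array 4. The count of called probes was 0 in every alternative but one: leaving out 1 array gave 0 to 15, the 15 without array 2. Members with a ratio below 0 numbered 2 with no normalisation within arrays, 6 to 9 in the other alternatives, and 7 to 9 with 1 array left out. The members' median was -0.081 with median centring and 0.26 with no normalisation, and -0.44 to -0.41 with 1 array left out. Minus the median of all tested probes it was -0.36 in both scalings, which is fixed by construction, since they differ only by a constant on each array. On the same measure it was -0.47 to -0.41 with 1 array left out and -0.27 with treated RNA read as Cy5 on all arrays. Probes with an unadjusted p under 0.05, 495 as reported, numbered 270 with no dye term, 1080 with median centring, 8109 with no normalisation, 2145 with treated RNA read as Cy5 on all arrays, and 357 to 1570 with 1 array left out, the 1570 without array 4. Of 126 gene values, 17 changed sign. With median centring this was MX1 (0.091). With no normalisation it was OAS2 (0.25), IFIT3 (0.050), ISG15 (0.26), MX1 (0.44) and USP18 (0.32). With the scanner's log ratio, and likewise with the authors' deposited table, it was MX2 (-0.13) and EIF2AK2 (-0.16). With treated RNA read as Cy5 on all arrays it was MX2 (-0.32), EIF2AK2 (-0.93) and USP18 (0.076). With 1 array left out, MX2 ran from -0.43 to 0.47 and EIF2AK2 from -0.42 to 0.67, the lowest without array 2 and the highest without array 4. The cause was not tested. OASL and RSAD2 were below 0 in 14 of 14 alternatives. These are not 14 separate checks. Dropping the dye term cannot move an estimate here, a filter moves only genes with a dim probe, and the scanner's log ratio and the authors' table hold the same ratios. With levels centred on the array median only, a setting chosen after seeing the data, 17 of 17 member probes were highest on array 2 and 13 spanned at least 2 log2 units. The fit is paired by construction, since it works on the ratio of both RNAs within an array.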
